A study of Homo sapiens with 23 samples.

Results

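Invasive-front matrix and mesenchymal genes are 9 genes that squamous carcinoma cells are known to express where tumour meets stroma: FN1, TNC, TGFBI, CALD1, VIM, PDPN, LPP, SNAI2 and ZEB1. They were chosen with earlier results of these data known. By gene symbol all 9 were found among the 27589 genes of the deposited table, and all 9 passed the filter on low values. The first 3 are secreted matrix proteins, the next 4 belong to the cytoskeleton, the cell surface and focal adhesions, and the last 2 are transcription factors.

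The tumours came from SCC-13, an established human line of cutaneous squamous cell carcinoma, injected with Matrigel under the flank skin of NCG mice, which lack functional lymphocytes, and taken on day 26. The KO cells are labelled as knockout for human Flower (hFWE, symbol CACFD1), and 11 KO tumours were sequenced, 3 of line 2F7, 4 of line 2B8 and 4 of line 1G10. The WT cells are labelled as wild type for hFWE, and 12 WT tumours were sequenced, 4 each of lines 5B2, 6C9 and 6C10. The line codes are not explained in the labels, and each line has 1 genotype. No label ties a tumour to a mouse, so the p-values below speak of the spread among tumours. Those of the exact test on 6 line means speak of the spread among lines.

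In squamous carcinoma, cells at the edge of a tumour nest can loosen their contacts and take on some mesenchymal traits while keeping their keratins, a state called partial epithelial-mesenchymal transition. TGF-beta and contact with stroma are known to induce it. Such cells lay down fibronectin, tenascin-C and other provisional matrix, bind it through integrins, and pull on it with actin and myosin bundles anchored at focal adhesions.

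CACFD1 itself was still measured in every KO tumour, with a lowest, median and highest normalized value of 167, 277 and 370 in KO tumours, against 286, 370 and 432 in WT tumours. The ranges overlapped, and the table does not separate edited from unedited transcripts. In 21 libraries the estimated reads assigned to genes ranged from 13082214 to 22093213. The other libraries, both of WT line 6C9, were specimen 5532 with 7011069 reads and specimen 5533 with 2037751. In specimen 5533 1 read was worth 9.14 units, mitochondrial transcripts made up 6.21% of its values against 1.39% to 3.50% in the other 22, and its median correlation with the other libraries was 0.84 against at least 0.93 for the others. Results are therefore given with and without it. All 12 keratinocyte markers, among them KRT5, KRT14 and TP63, were detected in every tumour.

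The matrix genes stood out for their size of difference, and their promoters are shown because FN1 and TGFBI varied together across tumours more closely than FN1 did with any other of the 9. The sequences are the 250 bases before the RefSeq start on GRCh38.p14, read on the gene's strand. They are FN1 at chr2:215436069-215436318 on the minus strand, TNC at chr9:115118158-115118407 on the minus strand, and TGFBI at chr5:136028738-136028987 on the plus strand. Capitals mark a cyclic AMP response element, TGACGTCA, and a TATA box, TATAA.
FN1: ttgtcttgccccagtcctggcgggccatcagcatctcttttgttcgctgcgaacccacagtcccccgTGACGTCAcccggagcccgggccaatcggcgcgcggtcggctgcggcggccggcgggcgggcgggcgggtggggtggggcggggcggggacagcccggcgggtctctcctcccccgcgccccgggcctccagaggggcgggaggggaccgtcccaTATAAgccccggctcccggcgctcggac
TNC: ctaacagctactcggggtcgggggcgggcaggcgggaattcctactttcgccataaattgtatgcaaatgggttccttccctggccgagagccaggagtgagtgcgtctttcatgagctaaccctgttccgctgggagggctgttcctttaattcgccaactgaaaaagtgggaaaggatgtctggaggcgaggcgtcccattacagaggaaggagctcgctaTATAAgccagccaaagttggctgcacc
TGFBI: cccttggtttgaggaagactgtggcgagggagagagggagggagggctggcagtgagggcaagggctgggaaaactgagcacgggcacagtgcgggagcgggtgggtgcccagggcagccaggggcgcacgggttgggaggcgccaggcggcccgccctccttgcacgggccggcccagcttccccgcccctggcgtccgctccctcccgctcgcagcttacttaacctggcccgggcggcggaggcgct
The response element of FN1 began 183 bases and its TATA box 28 bases before the start, and the TATA box of TNC began 27 bases before it. TGFBI held no match to these motifs nor to the E-box CACCTG or the AP-1 site TGANTCA, which were also searched on both strands. Over the 35116 promoters of the same length in the RefSeq table, 1.65% held TGACGTCA, 18.9% TATAA, 17.5% CACCTG and 6.57% TGANTCA. The guanine and cytosine content was 76.4% for FN1, 54.8% for TNC and 72.8% for TGFBI, against a median of 58% over all promoters. For FN1 and TNC the deposited table places the gene's outer end inside the stretch shown, so its gene model starts further upstream than that of RefSeq.

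KO tumours had higher mean levels than WT tumours for all 9 genes, though for SNAI2 and ZEB1 the KO median was below the WT median. None of the 9 differences passed adjustment over the 16063 genes tested. The largest were in FN1 and TNC, which averaged 2.82 and 2.12 times the WT mean. At an unadjusted p under 0.05, 5 of the 9 were higher in KO tumours (FN1, TNC, TGFBI, CALD1 and LPP) and 0 were lower. Over all genes tested, 0.00623% were called after adjustment (1 gene), 5.9% were higher at the unadjusted threshold and 6.63% were lower. Of all log2 differences 54.2% were positive. The gene called was ENSG00000283228, named after its values were seen. Without specimen 5533 the members' counts were the same 5 and 0, with 0.0125% of genes called and 6.37% higher and 7.42% lower at the unadjusted threshold. Because the 9 genes were chosen with earlier results known, counts set beside these shares are a description and not a test.

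Values are normalized read abundances on the scale of the deposited table, which is not corrected for transcript length, so levels are compared between tumours and not between genes. Differences are on the log2(value + 1) scale from limma, with the Benjamini-Hochberg adjustment over all genes. The tumours are bulk tissue, in which fewer cells of a type and less RNA per cell cannot be told apart, and reads from mouse stroma that align to human genes would be counted with the tumour's own.

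**Figure D1:**
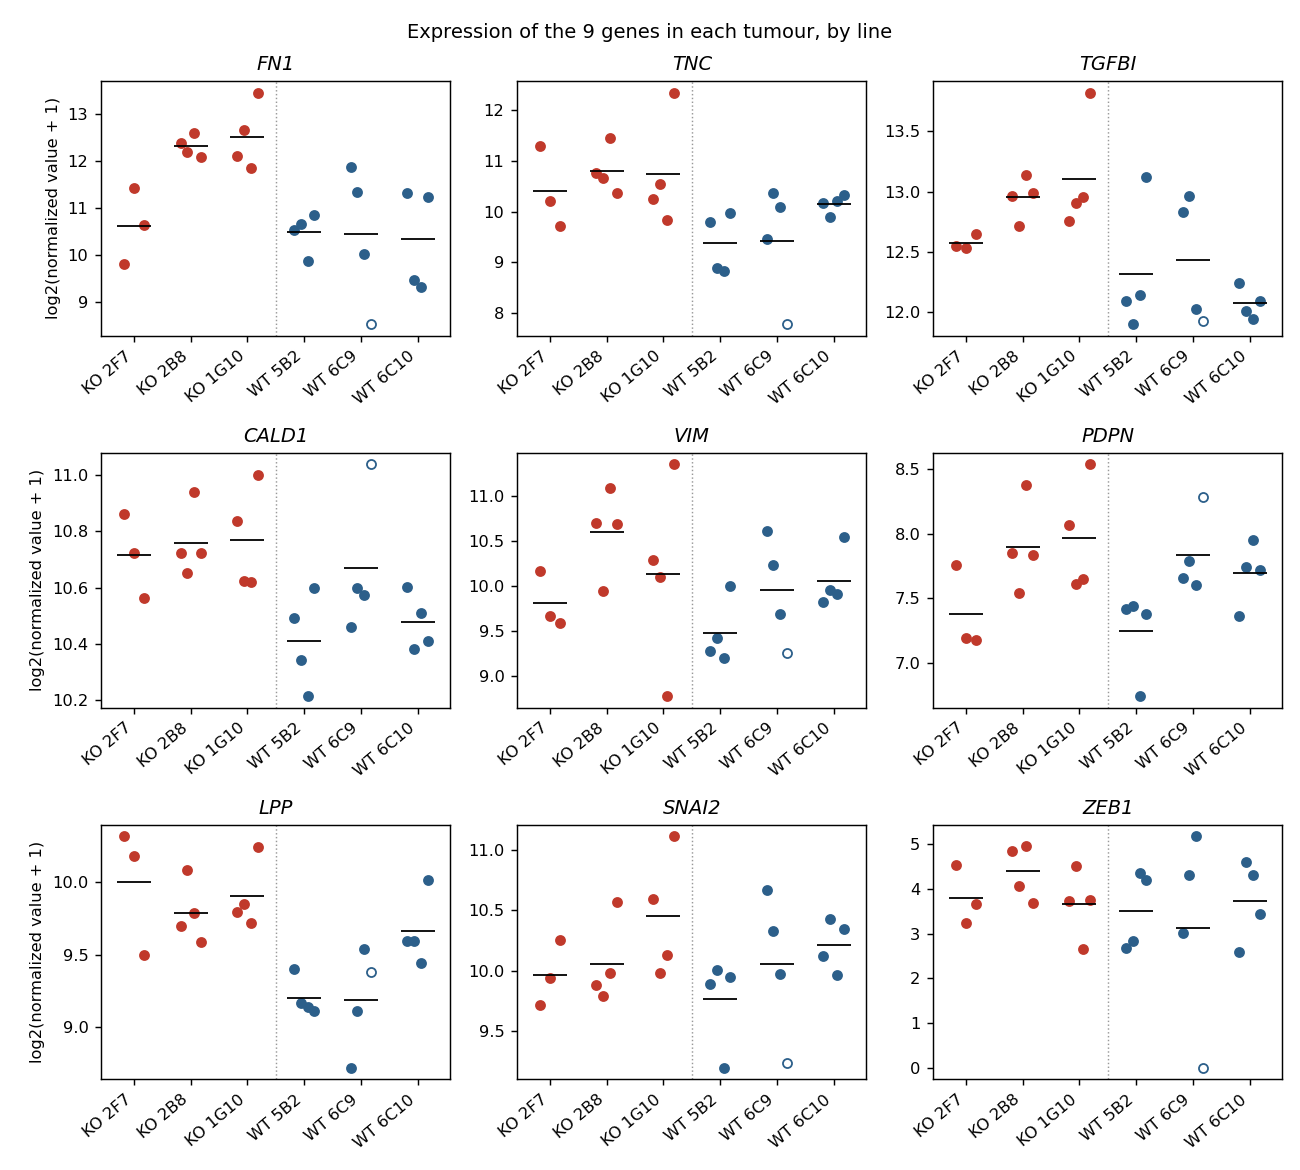
Log2(normalized value + 1) of each of the 9 genes in each tumour, with KO lines (red) left of WT lines (blue). Each point is 1 tumour, horizontal bars are line means, and the open point is WT 6C9 specimen 5533, which is lowest for FN1, TNC and ZEB1 and highest for CALD1.

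FN1 encodes fibronectin, a dimeric glycoprotein that cells assemble into fibrils and grip through integrins (chromosome 2, 215360440 to 215436074, minus strand, hg38). Its lowest, median and highest values were 889, 4400 and 11194 in KO tumours, against 365, 1546 and 3706 in WT tumours. The mean was 4664 ± 2778 in KO tumours (SD, n = 11) and 1655 ± 1003 in WT tumours (SD, n = 12). The groups overlapped: 7 of 11 KO tumours lay above every WT tumour and 10 above the WT median, and the KO tumours below the highest WT tumour included all 3 of line 2F7. The log2 difference was 1.50 with SE 0.39 (adjusted p = 0.227), and 1.32 with SE 0.37 without specimen 5533 (adjusted p = 0.176).

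TNC encodes tenascin-C, a six-armed matricellular protein scarce in resting skin and abundant in healing and tumour stroma (chromosome 9, 115019575 to 115118258, minus strand). It had a lowest, median and highest value of 838, 1504 and 5218 in KO tumours, against 219, 976 and 1326 in WT tumours. KO 1G10 specimen 5549 held the top value and WT specimen 5533 the bottom one, 7 of 11 KO tumours were above every WT tumour, and the other 4 lay within the WT range. Means were 1896 ± 1258 in KO tumours and 893 ± 357 in WT tumours, a log2 difference of 1.03 with SE 0.31 (adjusted p = 0.230). Without specimen 5533 it was 0.86 with SE 0.27 (adjusted p = 0.199).

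TGFBI encodes a secreted protein induced by TGF-beta that binds collagens and integrins (chromosome 5, 136028988 to 136063819, plus strand). The lowest, median and highest TGFBI values were 5934, 7653 and 14458 in KO tumours, against 3827, 4380 and 8919 in WT tumours. Every KO tumour was above the WT median, but 3 WT tumours, 5529 of line 5B2 and 5530 and 5531 of line 6C9, reached into the KO range, so that 2 KO tumours exceeded all WT tumours. The mean was 7925 ± 2375 in KO tumours and 5189 ± 1787 in WT tumours, with a log2 difference of 0.63 and SE 0.16 (adjusted p = 0.227). Without specimen 5533 the difference was 0.59 with SE 0.17 (adjusted p = 0.176).

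CALD1 encodes caldesmon, which binds actin, tropomyosin and myosin in stress fibres (chromosome 7, 134744252 to 134970730, plus strand). Its lowest, median and highest values were 1512, 1689 and 2049 in KO tumours, against 1187, 1447 and 2101 in WT tumours. The highest value of all was that of the shallow WT specimen 5533, which rests on 230 reads, and 0 KO tumours exceeded it. Without it the highest WT value was 1555 and 10 of 11 KO tumours lay above all 11 WT tumours. CALD1 varied least within a genotype, with means of 1731 ± 173 in KO tumours and 1480 ± 227 in WT tumours, or 1424 ± 120 in the 11 WT tumours without specimen 5533. The log2 difference was 0.23 with SE 0.08 (adjusted p = 0.263), and 0.28 with SE 0.06 without specimen 5533 (adjusted p = 0.126).

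LPP encodes a LIM domain protein of the zyxin family that shuttles between focal adhesions, cell contacts and the nucleus (chromosome 3, 188153284 to 188890672, plus strand). For LPP the lowest, median and highest values were 720, 886 and 1273 in KO tumours, against 421, 670 and 1034 in WT tumours. Each of the 11 KO tumours had more LPP than the median WT tumour and 4 had more than every WT tumour, while WT 6C10 specimen 5537 exceeded 7 of the KO tumours. Means were 962 ± 188 in KO tumours and 668 ± 156 in WT tumours. The log2 difference of 0.53 with SE 0.13 ranked 11 by p over all genes (adjusted p = 0.227), and it was 0.54 with SE 0.13 without specimen 5533 (adjusted p = 0.176).

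VIM and PDPN had smaller differences against their spread. VIM encodes vimentin, the intermediate filament of mesenchymal cells (chromosome 10, 17228241 to 17237594, plus strand), with a lowest, median and highest value of 439, 1147 and 2608 in KO tumours, against 589, 932 and 1568 in WT tumours. The lowest and the highest tumour were both of KO line 1G10, and the WT range lay within the KO range. The mean was 1327 ± 643 in KO tumours and 957 ± 330 in WT tumours, a log2 difference of 0.39 with a 95% interval of -0.12 to 0.89 (adjusted p = 0.492). PDPN encodes podoplanin, a mucin-like membrane protein of invading squamous cells that binds ezrin and moesin (chromosome 1, 13583465 to 13617958, plus strand). PDPN had a lowest, median and highest value of 144, 216 and 371 in KO tumours, against 106, 197 and 311 in WT tumours, where the highest was specimen 5533. The PDPN difference was 0.19 with a 95% interval of -0.15 to 0.53 (adjusted p = 0.582), and 0.25 without specimen 5533 (adjusted p = 0.502). Leaving out KO specimen 5549 brought it to 0.12, and so did leaving out WT specimen 5528, the WT tumour lowest in PDPN.

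The transcription factors overlapped almost fully. SNAI2, on chromosome 8, encodes Slug, a zinc finger repressor of E-cadherin that is also made by basal keratinocytes during wound closure. Its lowest, median and highest values were 838, 1012 and 2214 in KO tumours, against 585, 1017 and 1629 in WT tumours. Only specimen 5549 exceeded the WT range and 5 of 11 KO tumours lay above the WT median. The SNAI2 difference was 0.17 with a 95% interval of -0.19 to 0.52 (adjusted p = 0.638), 0.09 without specimen 5533 and 0.07 without specimen 5549. ZEB1 encodes a repressor of epithelial genes (chromosome 10, 31318495 to 31529815, plus strand) and rested on few reads, 5 to 36 in KO tumours, against 0 to 27 in WT tumours. Its lowest, median and highest values were 5.28, 12.5 and 30.2 in KO tumours, against 0, 13.6 and 35.1 in WT tumours, and the value of 0 was that of specimen 5533, where 3 reads would be worth 27.4 units. The ZEB1 difference was 0.51 with a 95% interval of -0.43 to 1.44 (adjusted p = 0.596), and 0.19 with an interval of -0.53 to 0.90 without specimen 5533 (adjusted p = 0.853). Both intervals include 0, and the KO median lay below the WT median.

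**Figure D2:**
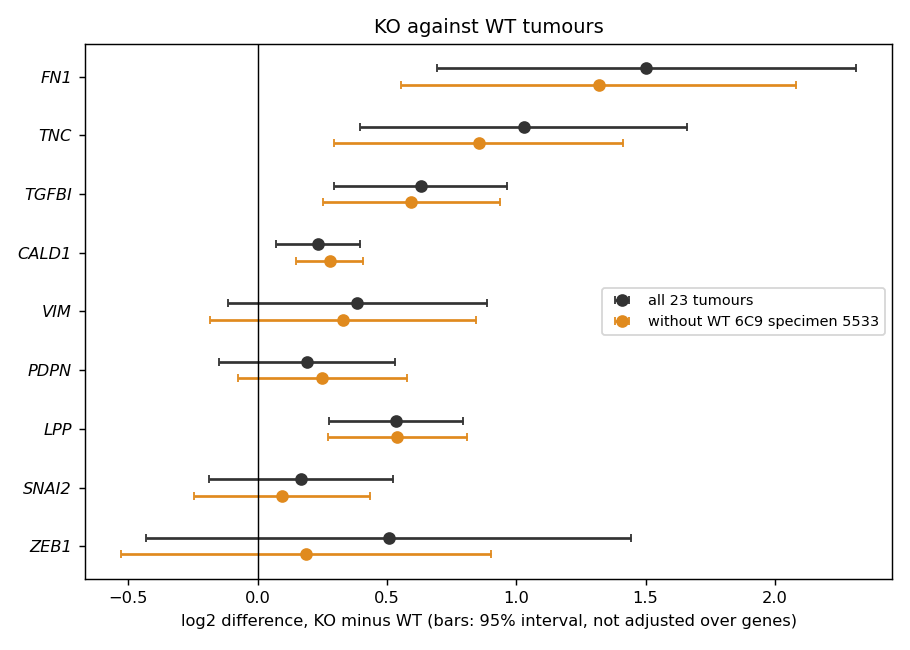
Log2 difference, KO minus WT, of each gene from limma with its 95% interval, not adjusted over genes, with all 23 tumours (dark) and without WT 6C9 specimen 5533 (orange). The intervals of FN1, TNC, TGFBI, CALD1 and LPP lie above 0 in both fits and those of VIM, PDPN, SNAI2 and ZEB1 include 0.

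Library weights changed the calls. When limma weighted each library by how closely it followed the fitted model, specimen 5533 received a weight of 0.0287, against 0.452 to 2.04 in the other 22. Under these weights 738 of 16063 genes were called, 254 higher and 484 lower in KO tumours, among them FN1 (adjusted p = 0.0154), TNC (0.0457), TGFBI (0.0119), CALD1 (0.0119) and LPP (0.0306). The same 5 genes were the ones with an unadjusted p under 0.05 in all 23 fits that left out 1 tumour. In those fits the log2 difference of FN1 ranged from 1.32 to 1.72, TNC from 0.86 to 1.13, TGFBI from 0.54 to 0.71, CALD1 from 0.21 to 0.28 and LPP from 0.48 to 0.60.

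The 3 KO lines had unlike values for some of the genes, most of all for FN1. In KO line 2F7 the FN1 values were 889, 2727 and 1579, in line 2B8 they were 5320, 4633, 6180 and 4304, and in line 1G10 they were 4400, 6420, 3661 and 11194. The WT values were 1476, 1616, 931 and 1845 in line 5B2, 3706, 2593, 1028 and 365 in line 6C9, and 2555, 703, 636 and 2408 in line 6C10. Every 2B8 tumour and 3 of the 4 1G10 tumours were above the highest WT tumour, whereas the 2F7 tumours lay within the WT range. CACFD1 values also lay within their WT range in all 3 tumours of line 2F7 (370, 349 and 308), against 1 of the 4 of line 2B8 (321, 277, 245 and 218) and 0 of the 4 of line 1G10 (281, 255, 246 and 167), and the part of this in the result was not tested. Against the mean of the WT lines the log2 difference of FN1 was 0.20 (SE 0.54) for 2F7, 1.89 (SE 0.48) for 2B8 and 2.10 (SE 0.48) for 1G10. Without specimen 5533 these were -0.01, 1.68 and 1.89. The test among the 3 KO lines gave FN1 an unadjusted p of 0.0153, and adjusted over all genes this was 1 in limma's F test. Without specimen 5533 the same F test gave an unadjusted p of 0.0027 and an adjusted p of 0.81.

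TNC, TGFBI, CALD1 and LPP had a positive difference from the WT lines in each KO line, with and without specimen 5533. The TNC values were 2498, 1184 and 838 in KO 2F7, 1730, 1629, 2796 and 1328 in KO 2B8 and 1222, 1504, 913 and 5218 in KO 1G10. The WT values of TNC were 886, 475, 456 and 1002 in 5B2, 700, 1326, 1087 and 219 in 6C9 and 1147, 949, 1192 and 1281 in 6C10. The log2 differences of TNC from the WT lines were 0.75 (SE 0.47) in 2F7, 1.16 (SE 0.42) in 2B8 and 1.10 (SE 0.42) in 1G10. LPP had the lowest p of the 9 genes in line 2F7, with values of 1273, 1159 and 720 there and a difference of 0.64 (SE 0.17). The LPP differences were 0.44 (SE 0.16) in 2B8 and 0.55 (SE 0.16) in 1G10. For CALD1 the difference was 0.20 (SE 0.12) in 2F7, 0.24 (SE 0.11) in 2B8 and 0.25 (SE 0.11) in 1G10.

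VIM, PDPN and SNAI2 had differences near or below 0 in line 2F7. VIM differed from the WT lines by 0.78 (SE 0.32) in 2B8, 0.30 (SE 0.32) in 1G10 and -0.02 (SE 0.36) in 2F7. PDPN differed by 0.31 (SE 0.19) in 2B8, 0.38 (SE 0.19) in 1G10 and -0.21 (SE 0.22) in 2F7. SNAI2 differed by 0.45 (SE 0.23) in 1G10 and by 0.05 and -0.04 in 2B8 and 2F7. TGFBI values were close together in 2F7, at 5999, 5934 and 6413, and its difference of 0.30 (SE 0.24) there was smaller than 0.68 in 2B8 and 0.83 in 1G10.

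None of the 27 comparisons of a gene in a KO line with the WT lines passed adjustment in limma, where 0% of all genes were called higher or lower in each of the 3 KO lines. The tests among the KO lines and among the WT lines called 0% and 0.00623% of all genes, and none of the 9. The lowest adjusted p was 0.172, for FN1 in 1G10, and without specimen 5533 that of FN1 in 1G10 was 0.0713 in limma. At an unadjusted p under 0.05, line 2F7 had 1 of the 9 genes higher (LPP), line 2B8 had 6 and line 1G10 had 5, and 0 were lower in any line. Of all genes tested, 1.38% were higher in 2F7, 3.72% in 2B8 and 4.03% in 1G10 at that threshold, and 1.1%, 4.47% and 5.62% were lower in these lines. Without specimen 5533 the members higher were 2 in 2F7 (CALD1 and LPP), 6 in 2B8 and 6 in 1G10, where PDPN was added, and 0 were lower. The shares of all genes were then 2.92%, 6.1% and 6.6% higher and 2.47%, 6.56% and 8.05% lower in 2F7, 2B8 and 1G10. Among the WT lines the lowest unadjusted p was 0.0361, for LPP, which adjusted over all genes was 0.482. Knockout and line are nested, so beyond the 3 lines a side genotype and line cannot be told apart.

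Taken as 6 line means on the log2 scale, the KO and WT lines did not overlap for FN1, TNC, TGFBI, CALD1 and LPP, 5 of the 9 genes, all higher in KO. Over all genes tested 9.77% had KO line means above all WT line means. That share is given as a description, because the 9 genes were chosen with earlier results known. The exact two-sided permutation test of 3 against 3 lines gave p = 0.1 for each of the 5, the smallest that this design allows. Without specimen 5533 the line means did not overlap for TNC, CALD1 and LPP, 3 of 9 against 7.13% of all genes, and FN1 and TGFBI had p = 0.2 in that exact test. The WT line 6C9 mean of FN1 was then 11.1 on the log2 scale, above the 10.6 of KO line 2F7.

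**Figure D3:**
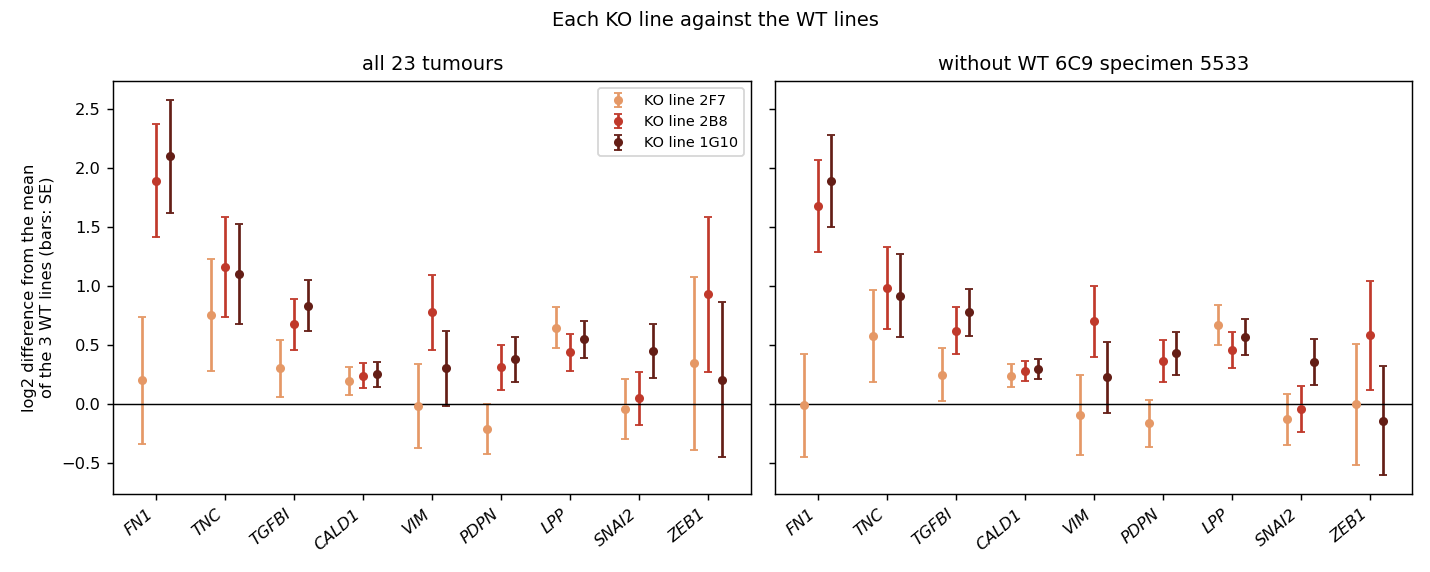
Log2 difference of each KO line from the mean of the 3 WT lines, with SE, for all tumours (left) and without WT 6C9 specimen 5533 (right). FN1 in line 2F7 lies near 0 while lines 2B8 and 1G10 lie near 2, and CALD1 and LPP have similar differences in all 3 lines.

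Across the 23 tumours several of the 9 genes varied together, though not as 1 block. Of the 36 pairs, 34 had a positive Pearson r of log2 values, the median r was 0.42, and 16 had an adjusted p under 0.05 by permutation of tumours over the 36 pairs. The permutation ignored line and genotype, although tumours of 1 line are not independent. Within KO tumours the median r was 0.50, and within WT tumours 0.20. The closest pair was FN1 with TGFBI (r = 0.81, Spearman rho = 0.77, adjusted p = 0.00036 and 0.00072). Its r was 0.77 within the 11 KO tumours and 0.62 within the 12 WT tumours, and 0.74 without the 2 tumours farthest from the median of FN1. Within lines, with line means removed, it was 0.64, while the median over the 36 pairs was 0.28. Next closest were CALD1 with PDPN (r = 0.73, rho = 0.56) and TNC with VIM (r = 0.72, rho = 0.76), with an adjusted p of 0.0013 for both values of r by permutation.

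Without specimen 5533 the r of FN1 with TGFBI was 0.80, of CALD1 with PDPN 0.69 and of TNC with VIM 0.72. The same specimen lay off the relation of TNC with CALD1. With specimen 5533 the r of that pair was 0.41 (rho 0.58). Without it r was 0.87 (rho 0.81, adjusted p = 0.00036 by permutation), 0.85 within KO and 0.77 within WT tumours. Without it 19 of 36 pairs had an adjusted p under 0.05. The relation of TNC with SNAI2 rested on 2 tumours: its r was 0.51 (rho 0.12), and 0.03 without specimens 5533 and 5549. KO 1G10 specimen 5549 held the highest value of all 23 tumours in 6 of the 9 genes (FN1, TNC, TGFBI, VIM, PDPN and SNAI2). SNAI2 and ZEB1, both repressors of E-cadherin, had an r of 0.16 (rho -0.15) with each other, and ZEB1 with LPP had 0.18 (rho 0.18).

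**Figure D4:**
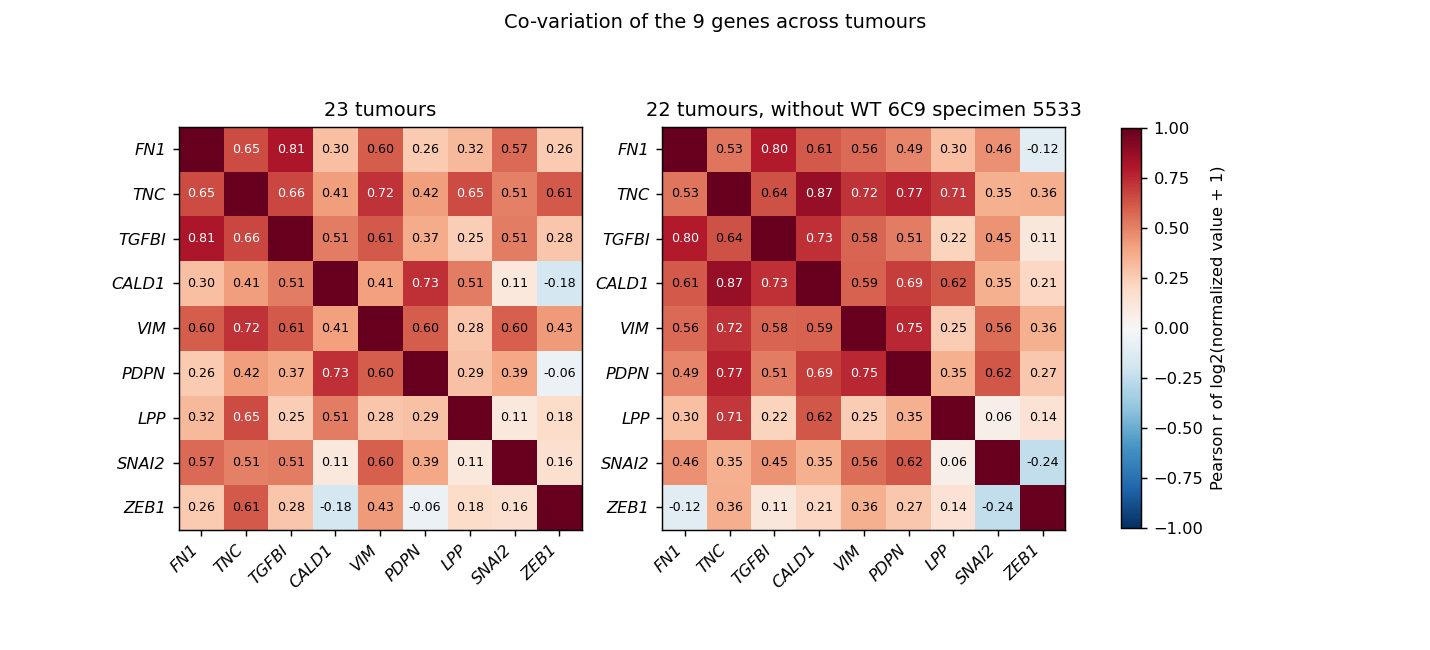
Pearson r of log2(normalized value + 1) between the 9 genes across 23 tumours (left) and 22 tumours without WT 6C9 specimen 5533 (right). Red is positive and blue negative, and the rows of CALD1 and ZEB1 differ between the panels.

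The genes that varied most like each of the 9 were sought among 12170 genes averaging 50 or more, the other members included, in the 22 tumours without specimen 5533. They are chosen maxima and are given as a description. FN1 was most like DNAH5, MN1 and P4HA2, a prolyl hydroxylase of collagen (r = 0.91, 0.86 and 0.85). TNC was most like PGM2L1, the laminin chain LAMA3 and ESYT1 (r = 0.94, 0.91 and 0.90), and CALD1 was most like PARP4, TNC and ESYT1 (r = 0.89, 0.87 and 0.86). TGFBI was most like IMPDH1, the lysosomal protease CTSZ and the protease inhibitor SERPINE2 (r = 0.92, 0.91 and 0.90). VIM was most like TGFBR2, the type II receptor of TGF-beta, with DENND5A and VEZF1 next (r = 0.89, 0.87 and 0.86). PDPN was most like caveolin CAV1, ZNF281 and the growth factor receptor MET (r = 0.88, 0.87 and 0.86). LPP was most like PRKDC, the atypical cadherin FAT1 and MYO9A (r = 0.92, 0.91 and 0.90), and ZEB1 was most like its paralogue ZEB2, IGFBP4 and PKIA (r = 0.85, 0.84 and 0.82). SNAI2 was most like CAV2, CTNNAL1 and HNRNPA1P48 (r = 0.82, 0.82 and 0.81), and the last is a pseudogene whose reads can come from its parent gene.

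Fibroblasts are also known to make FN1, TNC, TGFBI, VIM and ZEB1, and their markers varied with these genes. The summed value of 19 fibroblast markers had a lowest, median and highest value of 6864, 11270 and 34955 in KO tumours, against 3289, 9302 and 22627 in WT tumours. Collagens made up most of it: COL1A1 averaged 7008 in KO and 5013 in WT tumours, while LUM averaged 3.16 in KO and 3.95 in WT tumours and THY1 averaged 1.81 in KO and 1.96 in WT tumours, with THY1 at 0 in 6 tumours. Of the 19 markers 12 were detected in all tumours. The summed markers correlated with VIM (r = 0.63, rho = 0.79), FN1 (r = 0.66, rho = 0.67), TGFBI (r = 0.65, rho = 0.74), TNC (r = 0.63, rho = 0.67) and ZEB1 (r = 0.64, rho = 0.47). Adjusted over the 9 genes, permutation p for r was 0.0034 for FN1 and TGFBI, 0.0036 for VIM and 0.0042 for TNC and ZEB1. CALD1, PDPN and LPP had r of 0.01, 0.05 and 0.10 with rho of 0.30, 0.28 and 0.21, and SNAI2 had 0.39 with rho of 0.24. Specimen 5533 decided the values of CALD1 and PDPN, which without it had r of 0.35 and 0.31 with rho of 0.49 and 0.42.

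Without specimen 5533, 3 of the 9 relations had an adjusted p under 0.05 for r by permutation, those of FN1, TGFBI and VIM (r = 0.54, 0.63 and 0.61). For rho 5 did, adding TNC (rho = 0.63) and CALD1 (adjusted permutation p = 0.042), and with all tumours rho gave 5 as well. Leaving out the 2 tumours farthest from the median, specimens 5533 and 5542, gave r of 0.51 for FN1, 0.66 for TGFBI, 0.60 for VIM, 0.45 for TNC and 0.30 for ZEB1. Within the 11 KO tumours r was 0.50 for FN1, 0.35 for TGFBI and 0.58 for VIM. Within the 12 WT tumours it was 0.72 for FN1, 0.81 for TGFBI and 0.65 for VIM, and in the 11 without specimen 5533 it was 0.51, 0.94 and 0.59. With line means removed r over all tumours was 0.63 for FN1, 0.65 for TGFBI and 0.61 for VIM, and without specimen 5533 it was 0.41, 0.59 and 0.54. A fibroblast score was also put in the model. It was the mean log2 value of the 15 markers that passed the filter, so it weighted them equally, unlike the sum. With this score the log2 difference of KO from WT was 1.15 (SE 0.37) for FN1, 0.72 (SE 0.27) for TNC, 0.48 (SE 0.15) for TGFBI, 0.25 (SE 0.09) for CALD1 and 0.55 (SE 0.14) for LPP. Each had an unadjusted p under 0.05 and none was called, with an adjusted p of 0.999 for each. Over all 16063 genes tested, 684 had an unadjusted p under 0.05 in either direction with the score, against 2013 without it. About 803 would be expected by chance. The 9 genes were chosen with earlier results known, so the 5 are a description. In the same fit VIM had 0.15 (SE 0.22) and ZEB1 0.10 (SE 0.44). Mural cell markers, those of pericytes and smooth muscle, had a lowest, median and highest sum of 4261, 5905 and 8341 in KO tumours, against 1636, 4688 and 5987 in WT tumours. Most of the sum was CSPG4, averaging 2471 in KO and 1653 in WT tumours, and NOTCH3, averaging 2512 and 2014. Of 7 mural genes tested 6 had positive differences, and ACTA2, averaging 267 in KO and 285 in WT tumours, had a negative one. The part of mural cells in the result was not tested.

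**Figure D5:**
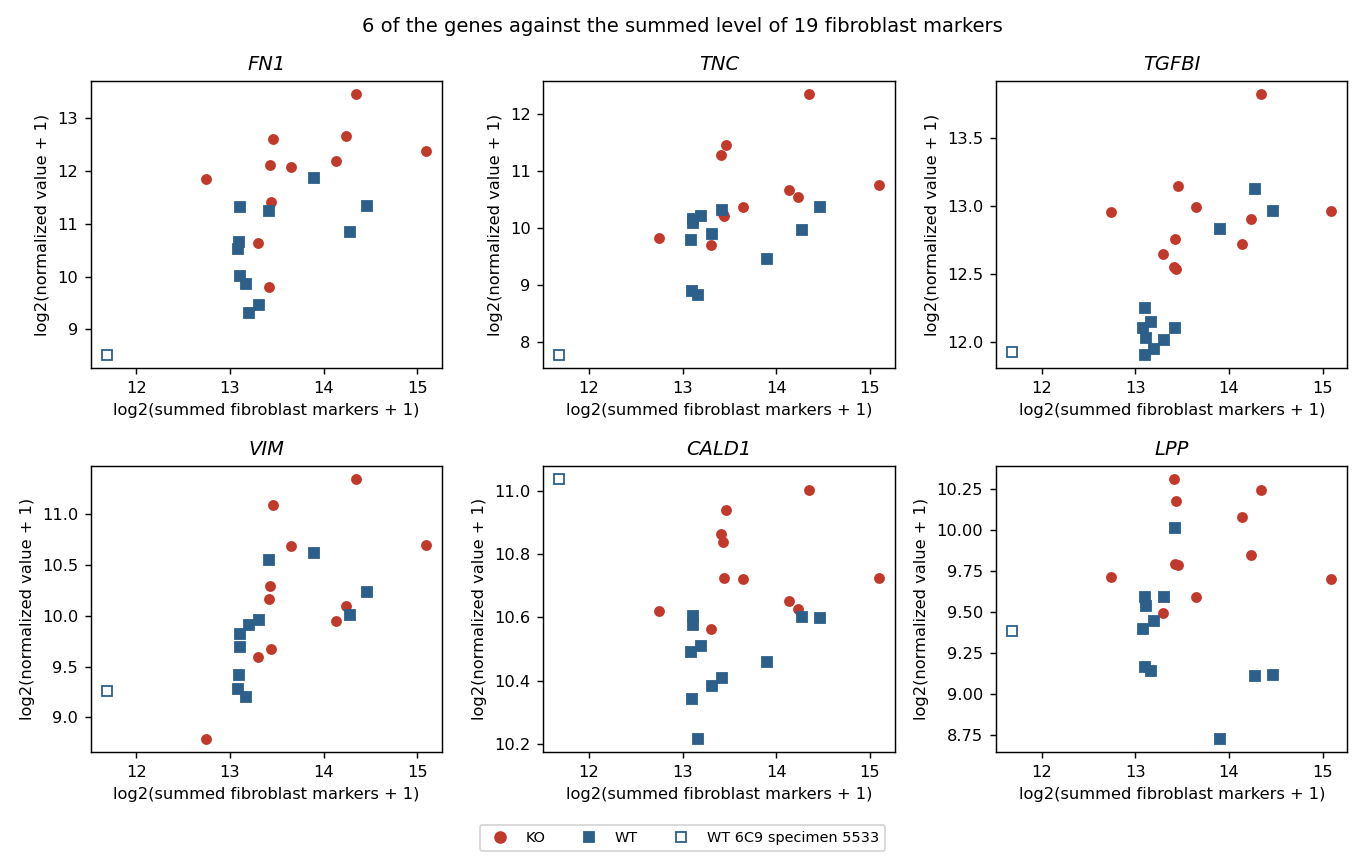
Log2(normalized value + 1) of 6 genes against the log2 summed value of 19 fibroblast markers, 1 point a tumour, KO as red circles and WT as blue squares. FN1, TNC, TGFBI and VIM lie higher where the summed markers are higher, while r was 0.10 for LPP and 0.01 for CALD1, whose r was 0.35 without specimen 5533, the open square.

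The wider programme around these genes was followed through lists of its ligands, receptors, effectors and opponents. No member of any list was called by limma after adjustment, and each list is described by its counts at an unadjusted p under 0.05 and its median. Over all genes tested the median was 0.03, 5.9% were higher and 6.63% lower at that threshold, and 54.2% of differences were positive. The lists were chosen with earlier results of these data known, so their counts are a description. Without specimen 5533 the median over all genes was 0.0008, with 6.37% higher and 7.42% lower. The 12 keratinocyte markers had a median of 0.32, or 0.19 without that specimen, with 10 positive and 2 negative differences. Positive medians up to these values were thus not particular to the lists below. Of those lists, the provisional matrix genes (0.63, and 0.30 without that specimen) and the partial transition genes (0.39 and 0.38) had higher medians in both fits.

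Among 18 provisional matrix genes, 10 were higher in KO tumours (9 without specimen 5533) and 0 lower, with a median log2 difference of 0.63, or 0.30 without that specimen. They include FN1, TNC and TGFBI themselves. Of 10 receptors for this matrix, 4 were higher and 0 lower (median 0.31, and 0.23 without specimen 5533). CD44, the hyaluronan receptor, averaged 5926 in KO and 4824 in WT tumours (0.30, SE 0.10, adjusted p = 0.244). The integrin chain ITGA3 had a difference of 0.48 (SE 0.16, adjusted p = 0.272), and SDC1, a syndecan with the highest mean of the list, 0.10 (SE 0.09, adjusted p = 0.601).

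The TGF-beta list of 23 ligands, latency proteins, receptors and targets had 6 higher and 0 lower, with a median of 0.25, or 0.12 without specimen 5533. The ligand TGFB2 averaged 32.0 in KO and 13.6 in WT tumours (1.36, SE 0.43, adjusted p = 0.244). TGFB1, the ligand with the higher values, had a difference of 0.10 (SE 0.12) and BHLHE40 one of -0.0047 (SE 0.18). Of 9 transcription factors of the transition, SNAI2 and ZEB1 included, 1 was higher, SOX9 (0.47, SE 0.19, adjusted p = 0.328), and 0 were lower. TCF4 and SOX4 had differences of 0.11 and 0.02.

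The epithelial side was mixed in sign, with 8 positive and 10 negative differences. Of 18 epithelial adhesion genes and factors that oppose the transition, 0 were higher and 5 lower in KO tumours, or 6 lower without specimen 5533, with a median of -0.05, or -0.12 without it. ELF3, an epithelial ETS factor, averaged 189 in KO and 321 in WT tumours (-0.86, SE 0.21, adjusted p = 0.227). The tight junction claudin CLDN4 averaged 1737 in KO and 2811 in WT tumours (-0.73, SE 0.22, adjusted p = 0.232). CLDN1 and the splicing regulator ESRP1, the 2 with the highest means, had differences of -0.24 (SE 0.18) and -0.05 (SE 0.09). E-cadherin, CDH1, had one of 0.33 (SE 0.17, adjusted p = 0.436), or 0.18 without specimen 5533, and is named after its values were seen.

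On the mesenchymal surface list 3 of 11 genes were higher and 0 lower, with a median of 0.30. Without specimen 5533, 3 were higher and 1 lower, with a median of 0.25. The lower one was S100A4, a calcium-binding protein used as a mesenchymal marker and named after its values were seen, which averaged 128 in KO and 322 in WT tumours (-0.67, SE 0.34, adjusted p = 0.415) and differed by -0.37 without specimen 5533. The ecto-nucleotidase NT5E averaged 142 in KO and 68.2 in WT tumours (1.00, SE 0.34, adjusted p = 0.263). The actin and adhesion list, which holds CALD1 and LPP, had 11 of 24 higher and 0 lower (median 0.27), and 9 higher and 0 lower without specimen 5533 (median 0.22). Its crosslinker filamin A, FLNA, averaged 9529 in KO and 6316 in WT tumours (0.64, SE 0.21, adjusted p = 0.261), and the non-muscle myosin heavy chain MYH9 averaged 13341 in KO and 9006 in WT tumours (0.66, SE 0.23, adjusted p = 0.283).

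Of 15 partial transition genes described in head and neck carcinoma, a list that holds TNC, TGFBI, VIM and PDPN, 8 were higher and 0 lower, and all 15 differences were positive. The median was 0.39, and 0.38 without specimen 5533. Because these lists share members with each other and with the 9 genes, their counts are not independent.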

How the data were processed

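RNA was extracted from flash frozen tumours and poly(A) selected, and directional libraries were made from 500 ng, per the labels' protocols. The deposited table holds 1 value per gene and tumour, a signal that was taken as size-factor normalized read abundance, because in every library the values had the same median ratio, 1.015, to each gene's geometric mean. STAR, DESeq2 and the build hg38 are named in the submitters' processing notes, with no version or role. The treatment of mouse reads and of strand was not given in the sources used here. Low values of each library repeat at multiples of 1 step, taken as 1 read, and between 70.7% and 83.9% of values up to 20 reads were whole within 0.02 reads, so counts were not recovered. Dividing totals by the step gave the estimated reads.

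From these values log2(value + 1) was computed, and 16063 genes with a mean of at least 10 were tested with limma 3.58.1 in R 4.3.3. The fit had a trended prior, the line as a random block (consensus correlation 0.0077) and Benjamini-Hochberg adjustment at 0.05. A line means model set each KO line against the average WT line. Line means were compared by exact permutation, and correlations were tested with 100000 permutations of tumours, made without regard to line or genotype. Self-tests on simulated data preceded these fits. Alternatives concerned the libraries, pseudocount, filter, scaling, block, weights and a fibroblast covariate.

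The members and the gene lists were chosen with earlier results of these data known. In each list the 2 genes with the smallest p and the 2 with the highest mean are named, except for a few genes and 1 list that are not reported here. Promoters came from the RefSeq table on GRCh38.p14. None is printed for SNAI2, and those of CALD1, VIM, PDPN, LPP and ZEB1 were only searched.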

Additional observations from a re-analysis of the deposited data

Results flagged for a closer look

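Each of the 9 genes was examined in the 5 lines of 4 tumours for a tumour that stood apart from the others of its line, by the gap to its nearest neighbour over the whole range (Dixon's criterion at 95%). The rule was applied to the normalized values and not to the log2 values, on which gaps between high values are smaller relative to the range. Of 45 such groups 5 held one. Chance gives about 1 in 20 only where values are normally distributed and groups independent. Several of the 9 genes varied together, so the groups are not independent and the count is a description. KO 1G10 specimen 5549 stood apart in TNC, with 5218 against 913 to 1504 in the other 1G10 tumours, and in TGFBI, with 14458 against 6908 to 7934. WT 5B2 specimen 5529 stood apart in TGFBI, with 8919 against 3827 to 4521. WT 6C10 specimen 5537 stood apart in VIM, with 1495 against 905 to 995. WT 5B2 specimen 5528 stood apart in PDPN on the low side, with 106 against 165 to 173. Line 2F7, with 3 tumours, was not examined.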

How the results depend on the processing

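In 41 fits of KO against WT, 363 of 368 values of the 9 genes kept their sign and their side of the threshold. The other 5 are those of FN1, TNC, TGFBI, CALD1 and LPP, called under library quality weights, where 5 members were called against 0. Of all genes 1 was called, against 738 under the weights, 2 without WT specimen 5533, and 0 without specimens 5532 and 5533, with libraries rescaled to the same total or by TMM factors, on the 6 line means, with the fibroblast covariate, and without line 2B8, 1G10, 5B2 or 6C10. Leaving out 1 tumour at a time gave 0 to 2. The 5 genes whose line means did not overlap were 3 without specimen 5533 and 3 without 5532 as well. The 5 relations with fibroblast markers were 3 by r and 5 by rho without specimen 5533. Signs turned in comparisons of single lines that passed no test. Without specimen 5533, FN1 in 2F7 was -0.013, ZEB1 in 2F7 -0.0014, SNAI2 in 2B8 -0.044 and ZEB1 in 1G10 -0.14. With equal totals VIM in 2F7 was 0.041 and SNAI2 in 2F7 was 0.018. The cause was not tested. VIM moved to 0.15 with the fibroblast covariate, and SNAI2 to 0.0035 under the weights. PDPN was 0.02 without line 5B2, and ZEB1 was 0.23 with a pseudocount of 8. No paired analysis was possible because the KO and WT tumours share no replicate numbers. Depth limits ZEB1, with at most 36 reads a tumour, and specimen 5533 throughout. An alternative joining the covariate with leaving out specimen 5533 was chosen after seeing the data and called 1 gene and 0 members.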

Other observations

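Other cell types of the tumours were followed by marker lists. The 12 keratinocyte markers summed to a median of 1424760 in KO and 1170440 in WT tumours, with 2 higher at an unadjusted p under 0.05, 0 lower and 0 called by limma. These were the desmosomal cadherins DSG3 (0.38, SE 0.15, adjusted p = 0.304) and DSC3 (0.39, SE 0.16, adjusted p = 0.342). The basal keratins KRT5 and KRT14 had differences of 0.33 and 0.27. Of 7 mural genes 1 was higher, CSPG4 (0.62, SE 0.20, adjusted p = 0.244), and NOTCH3 had 0.47 (SE 0.33). RGS5 is split over more than 1 gene identifier, so its value is uncertain. Among 15 fibroblast markers tested, 3 were higher and 0 lower (median 0.40, and 0.17 without specimen 5533). They were the collagens COL5A1 (0.80, SE 0.32, adjusted p = 0.324) and COL6A1 (0.61, SE 0.28, adjusted p = 0.385) and the protease FAP, named after its values were seen. COL1A1 and COL1A2 had differences of 0.48 and 0.30.

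Blood vessel and immune markers were sparse. PECAM1 averaged 0.628 in KO and 0.920 in WT tumours and was at 0 in 12 of 23. Of 3 endothelial genes tested VWF was lower at an unadjusted p under 0.05 (-0.77, SE 0.25, adjusted p = 0.245) and EGFL7 higher (0.45, SE 0.18, adjusted p = 0.331). PTPRC averaged 7.14 in KO and 3.75 in WT tumours, and of 3 myeloid genes tested (CD68, CSF1R and LYZ) 0 differed at that threshold. Skeletal muscle markers ranged in sum from 222 to 14396 in KO tumours, against 68.5 to 14636 in WT tumours, with 1 of 12 lower (MB, -0.90, SE 0.40). The 2 melanocyte genes tested, PMEL and MITF, had differences of -0.04 and -0.01.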
